A study of Mus musculus with 48 samples.

Results

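The genes described here are 8 regulators of muscle transcription: the myogenic regulatory factors Myod1, Myf5, Myf6 and Myog, the MEF2 factors Mef2a, Mef2c and Mef2d, and the homeobox gene Six4. They were taken by name from the 47480 gene symbols of the count tables, and all 8 were found and passed the filter on low counts in each comparison. Gene expression was measured by RNA-seq in 48 libraries of C2C12, an established line of mouse myoblasts, so each group describes the same cell line rather than different animals. Myoblasts, which are proliferating undifferentiated muscle cells, and cells that had been differentiated toward myotubes were each stretched for 1 h, for 3 h or for 6 h, and cells that were not stretched were collected at each of these times. Each of these 12 groups has 4 libraries. The Flexcell system stretched the collagen-coated bottom of the plate in repeated cycles and equally along both axes, and the non-stretched cells were cultured on the same plates without this treatment. All cells shared the C2C12 background and carried no further genetic change or drug. The myoblast libraries came from experiments B27 (replicates 7 and 8) and B31 (replicates 9 and 10), and the differentiated ones from B25 (replicates 7 and 8) and B28 (replicates 9 and 10). The stretched differentiated group at 1 h is an exception, with replicates 7 and 8 of B25, replicate 9 of B28 and replicate 4, the only library of experiment B17. The methods describe independent experiments with separate samples in each. For differentiated cells they name more experiments than the codes show in a group, except in the stretched group at 1 h. The fits take the 4 libraries of a group as replicates, so p-values measure the spread between libraries that in part share an experiment. The labels call the molecule nuclear RNA, whereas the methods describe a kit extraction from washed cells followed by stranded mRNA libraries.

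The myogenic regulatory factors are basic helix-loop-helix proteins that pair with E proteins and bind E-boxes. Myod1 and Myf5 commit cells to the muscle lineage, Myog (myogenin) drives terminal differentiation and Myf6 (MRF4) is a factor of later muscle. MEF2 proteins are MADS-box factors that cooperate with these on muscle genes, and Six4 is a homeodomain factor that works with Eya coactivators on MEF3 sites, one of which lies in the Myog promoter.

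On mm10 with the GENCODE vM21 annotation, Myog lies on chromosome 1 from 134289989 to 134292548 on the plus strand. Myod1 lies on chromosome 7 from 46376474 to 46379099 on the plus strand. Myf5 and Myf6 are neighbours on chromosome 10, at 107482908 to 107486134 and at 107492853 to 107494737, both on the minus strand and 6718 bases apart. Mef2a occupies 67231163 to 67372858 of chromosome 7 on the minus strand. Mef2c occupies 83504034 to 83667080 of chromosome 13 on the plus strand, and Mef2d 88142372 to 88172086 of chromosome 3 on the plus strand. Six4 runs from 73099609 to 73113456 of chromosome 12 on the minus strand. Of the 31-base stretches of their transcripts, 2.92% in Mef2a, 1.30% in Six4 and 0.037% in Mef2c also occur in other genes, and none in the other 5 members, so few reads of these genes could be divided with another gene.

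The promoter of Myog is shown because it is the member whose level differed most between the stages and because it holds letters that match the binding sites of the other families described here. The sequence is the RefSeq promoter (GRCm38.p6, plus strand, chr1:134289754-134290003), the 250 bases before the RefSeq start of transcription. Capitals mark, from 5′ to 3′, an E-box, the MEF3 letters TCAGGTT, the MEF2-type letters CTATATTTA and a further E-box.
Myog: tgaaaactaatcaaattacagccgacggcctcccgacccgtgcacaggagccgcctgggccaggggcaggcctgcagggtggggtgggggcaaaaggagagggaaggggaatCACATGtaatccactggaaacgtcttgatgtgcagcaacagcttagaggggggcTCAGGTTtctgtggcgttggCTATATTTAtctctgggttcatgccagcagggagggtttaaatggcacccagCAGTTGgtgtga
The E-boxes, with the letters CANNTG, stand at -138 to -133 and -12 to -7 from the RefSeq start, TCAGGTT at -84 to -78 and CTATATTTA at -64 to -56. GENCODE begins the first exon of Myog 15 bases earlier than RefSeq, so the second E-box falls inside that exon. Both strands were searched, no 2 of these matches overlap, and the letters of the MEF2-type motif were chosen after the sequence had been seen. Of 32851 mouse promoters of the same length, 66.2% hold CANNTG, 3.49% hold TCAGGTT and 0.186% hold CTATATTTA, so an E-box match is common and the last is rare. RefSeq promoters matched 6 members with 9 sequences. Those of Mef2a, Mef2d and Myf5 hold none of these letters, and 1 of the Six4 sequences holds TCAGGTT on the opposite strand at -97 to -91. Of the Mef2c sequences, 1 holds TCAGGTT on the opposite strand at -248 to -242 beside 2 E-boxes, and another holds 1 E-box at -245 to -240. Myod1 and Myf6 have no sequence here.

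The libraries hold 48447318 to 77080730 counts. The summed level of 10 markers of differentiated muscle (among them Myh3, Ckm and Ttn) was 54.7 to 103 CPM (the count scaled to library size, with TMM factors over all 48 libraries) in myoblast libraries and 15376 to 24216 CPM in differentiated ones. The 8 markers of proliferating cells summed to 2043 to 2459 CPM in myoblasts and to 301 to 819 CPM in differentiated cells. The 5 adipocyte markers summed to at most 0.188 CPM. The 6 satellite or reserve cell markers summed to 76.0 to 105 CPM in myoblasts and to 169 to 199 CPM in differentiated cells, with Calcr at 0 in every group. From non-stretched myoblasts to non-stretched differentiated cells, mean Spry1 went from 1.53 to 54.5 CPM and Heyl from 1.36 to 48.8 CPM. Pax7 went from 27.3 to 32.7 CPM and Cd34 from 59.5 to 42.3 CPM. Of the 5 osteoblast markers, Ibsp was at 0 in 11 of the 12 groups. Their sum was 81.3 to 107 CPM in myoblasts and 41.8 to 73.6 CPM in differentiated cells. Most of it was Runx2, with means of 88.7 and 46.6 CPM in the non-stretched libraries of these stages.

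The first question was how the 8 factors stand in cells that were not stretched. Between the stages, Myog and Mef2c were far higher in differentiated cells, Mef2a, Mef2d, Myf6 and Myod1 were moderately higher, Myf5 was lower and Six4 was nearly level. For this comparison, the 12 non-stretched libraries of each stage were tested with edgeR's quasi-likelihood test over all genes. A gene is said to have passed when its adjusted p (Benjamini-Hochberg) was under 0.05, and to be called when, in addition, the size of its log2 fold change reached 0.58. Of the 15439 genes tested, 90.6% passed and 50.5% were called, and 7 of the 8 members passed and were called, 6 of them higher in differentiated cells (26.4% of all genes) and 1 lower (24.1%). Differentiation, medium, plating density and experiment differ together between the stages and cannot be told apart.

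Myog, in non-stretched myoblasts, ranged from 0.652 to 3.22 CPM with a median of 1.16, and in differentiated cells from 759 to 957 CPM with a median of 891. The stages lie far apart, with a log2 fold change of 9.14 (SE 0.152, edgeR adjusted p = 2.87e-27), or 566-fold. Mef2c, the MEF2 member known from early muscle and heart development, ranged from 1.86 to 3.12 CPM with a median of 2.25 in myoblasts and from 247 to 318 CPM with a median of 273 in differentiated cells. Its log2 fold change was 6.85 (SE 0.0621, edgeR adjusted p = 7.28e-33), or 116-fold. In raw counts these genes were low in myoblasts, at 19 to 178 counts per library for Myog and 103 to 190 for Mef2c over stretched and non-stretched libraries.

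The other MEF2 genes were already well expressed in myoblasts. Mef2a ranged from 119 to 138 CPM with a median of 129 in non-stretched myoblasts and from 442 to 527 CPM with a median of 503 in differentiated cells (log2 fold change 1.90, SE 0.0332, edgeR adjusted p = 8.17e-27). Mef2d ranged from 107 to 120 CPM with a median of 114 and from 389 to 435 CPM with a median of 418, respectively (log2 fold change 1.84, SE 0.0210, edgeR adjusted p = 8.79e-31). The libraries of the stages did not overlap for either gene. The share of all genes with separate stages was not counted, and 90.6% of all genes passed between them. Both genes rose between 3- and 4-fold, at 3.74-fold and 3.58-fold.

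Myod1 and Myf5, the factors of the committed myoblast, moved in opposite directions. Myod1 ranged from 91.5 to 116 CPM (median 102) in non-stretched myoblasts and from 149 to 175 CPM (median 165) in differentiated cells, a log2 fold change of 0.65 (SE 0.0351, edgeR adjusted p = 1.05e-15). Myf5 ranged from 37.2 to 52.4 CPM (median 44.7) and from 19.2 to 23.7 CPM (median 21.2), a log2 fold change of -1.08 (SE 0.0433, edgeR adjusted p = 1.04e-18). Again no library of one stage reached the range of the other, and the share of all genes for which this holds was not counted. Myf6 rose by 1.26 on the log2 scale (SE 0.146, edgeR adjusted p = 8.56e-09) but remained scarce, at 0.124 to 0.347 CPM in myoblasts and 0.444 to 0.971 CPM in differentiated cells. Six4 ranged from 63.3 to 73.3 CPM (median 67.8) in non-stretched myoblasts and from 65.9 to 78.3 CPM (median 71.7) in differentiated cells. These ranges overlap, and the log2 difference of 0.04 (SE 0.0243, edgeR adjusted p = 0.106) did not pass, although it passed with DESeq2 at 0.06 (adjusted p = 0.0327).

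Divided by the length of the union of a gene's exons, levels can be set side by side between genes. In non-stretched myoblasts, Myod1 was highest at 55.1 ± 4.62 CPM per kb (SD, n = 12). It was followed by Myf5 at 21.5 ± 2.68 and Mef2d at 19.0 ± 0.668 CPM per kb, whose ranges overlap, then Mef2a at 8.81 ± 0.433 and Six4 at 6.31 ± 0.276 CPM per kb. Myog at 1.06 ± 0.595, Myf6 at 0.204 ± 0.0482 and Mef2c at 0.151 ± 0.0254 CPM per kb closed the order, and the ranges of the last pair overlap. In differentiated cells, Myog led at 590 ± 37.4 CPM per kb (SD, n = 12). After it came Myod1 at 88.0 ± 4.26, Mef2d at 69.4 ± 2.42, Mef2a at 33.6 ± 2.06, Mef2c at 17.7 ± 1.33, Myf5 at 10.3 ± 0.687, Six4 at 6.62 ± 0.337 and Myf6 at 0.496 ± 0.130 CPM per kb, with no overlap between neighbours. Of the summed level per kb of the 4 myogenic regulatory factors, Myod1 held 70.8% in myoblasts and Myog 85.7% in differentiated cells. The places of the MEF2 genes and of Six4 depend on the length used, a choice examined after the values were seen. Per kb of the longest transcript, Mef2a had 23.3 ± 1.15 CPM in myoblasts and 89.1 ± 5.47 in differentiated cells (SD, n = 12). Mef2d had 21.1 ± 0.740 and 76.9 ± 2.68 CPM on this scale. The mean order of Mef2a and Mef2d is then turned, and their ranges overlap in both stages. In differentiated cells, Six4 at 10.5 ± 0.537 CPM then stood above Myf5 at 10.3 ± 0.687 in the mean, with overlapping ranges.

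**Figure D1:**
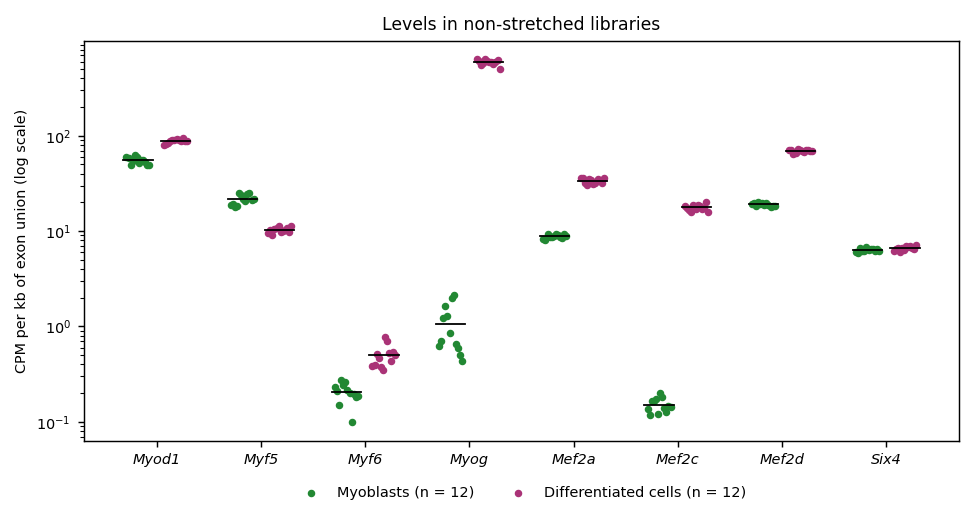
Level of each gene in the non-stretched libraries, in CPM per kb of exon union on a log axis, for 12 myoblast (green) and 12 differentiated (purple) libraries, with the mean as a bar. Myog moves from a mean of 1.06 to 590 CPM per kb and Mef2c from 0.151 to 17.7, while the points of Six4 overlap between the stages.

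The genes that act with these factors were read from lists chosen with earlier results of these data known. All 28 early muscle targets that could be tested (fusion factors, acetylcholine receptor subunits, contractile and triad genes) were called higher in differentiated cells, with a median log2 fold change of 7.83 beside 0.01 over all genes tested. Of 17 tested partners and inhibitors of the bHLH factors, 5 were called higher and 7 lower. Of 18 tested MEF2 regulators and coactivators, 6 were called higher and 0 lower. Over all genes, 26.4% were called higher and 24.1% lower.

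Without stretching, the 3 times of collection were compared next, since each time point has its own control. In non-stretched myoblasts, 2 of 8 members differed between the times beside 4.31% of all genes (edgeR's quasi-likelihood F test). Myf5 was at 39.5, 39.7, 37.2 and 37.9 CPM at 1 h, at 43.4 to 52.2 CPM at 3 h and at 44.6 to 52.4 CPM at 6 h. No library at 1 h reached the later ones, and the share of all genes for which this holds was not counted. The log2 differences of Myf5 from 1 h were 0.31 and 0.33 (edgeR adjusted p = 0.0110). Myog differed from its level at 1 h by 0.60 at 3 h and by -0.92 at 6 h on the log2 scale (edgeR adjusted p = 0.0368). The Myog result did not pass without replicate 9 or 10 of the 3 h group or without any one of replicates 7, 8, 9 and 10 of the 6 h group, where its adjusted p was between 0.0756 and 0.102. In differentiated cells, 0 of 8 members passed beside 0.108% of all genes, with Myod1 alone at an unadjusted p under 0.05 in edgeR (adjusted p = 0.174), and 0 passed in the alternatives that were run.

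The second question was how the factors respond to stretching at each stage and time. The clearest changes were a lower Six4 after 1 h and a higher Myf5 after 6 h in both stages, with small or no changes in Myod1 and Mef2c. In myoblasts, Mef2a and Mef2d were slightly higher at 3 h. The mean of Myog was also lower in stretched myoblasts at each time, at low counts. It passed at 3 h and 6 h but not at 1 h, and neither pass held in every fit that left out 1 library. Each time point was tested over its 8 libraries with edgeR's quasi-likelihood test. A bulk library cannot tell a lower share of cells that express a gene from less RNA per cell.

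**Figure D2:**
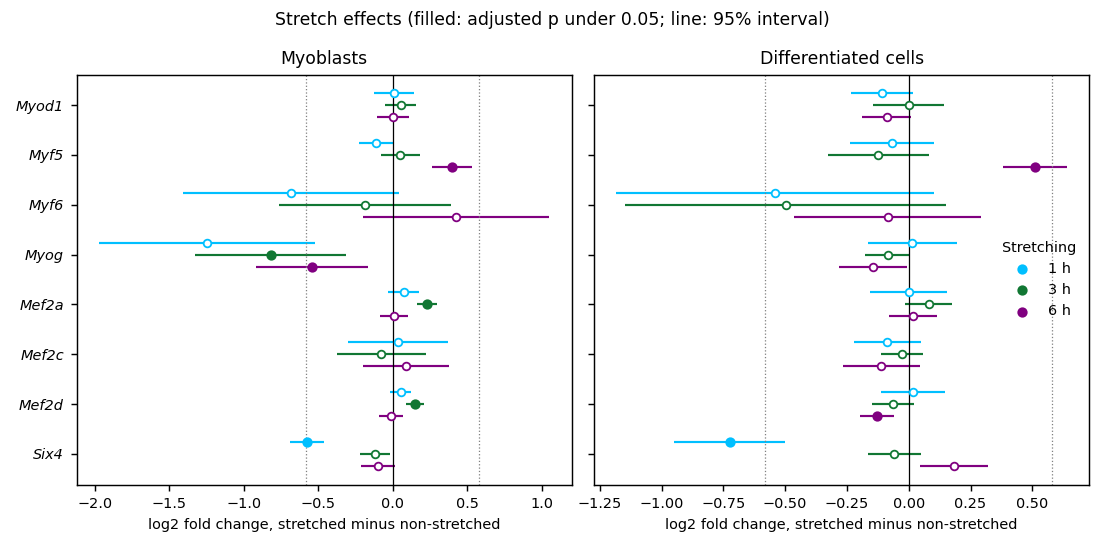
Log2 fold change of each gene, stretched minus non-stretched, at each of the 3 times, with 95% intervals from the fit over 8 libraries. Filled points have an edgeR adjusted p under 0.05, dotted lines mark the limit of 0.58, and Six4 at 1 h and Myf5 at 6 h are filled on the same side of 0 in both stages.

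In myoblasts stretched for 1 h, 1 of 8 members passed beside 5.92% of all 14938 genes, and 0 members were called beside 1.25%. Six4 was at 66.2, 63.3, 72.3 and 66.4 CPM in non-stretched replicates 7 to 10 and at 44.3, 48.5, 41.9 and 45.3 CPM in stretched ones. Every stretched library was below every non-stretched one, as for 8.03% of all genes, and Six4 fell by 0.58 on the log2 scale (SE 0.0528, edgeR adjusted p = 1.09e-04), or by 33.0%, just short of the limit for a call at -0.577. The change was -0.47 within experiment B27 (edgeR adjusted p = 0.0477) and -0.68 within B31 (edgeR adjusted p = 0.00146).

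At the same time, Myog in non-stretched myoblasts was at 0.935, 1.04, 1.84 and 2.43 CPM and in stretched ones at 0.389, 0.647, 0.597 and 0.955 CPM. The groups overlap only where the highest stretched library exceeds the lowest non-stretched one. The log2 fold change was -1.25 (SE 0.331) with an edgeR adjusted p = 0.0501, which does not pass. It lies close to the threshold: with DESeq2 the adjusted p was 0.00300, and the difference was called in 6 of the 7 alternatives that used all 8 libraries. Within experiment B27 it was -0.90 (edgeR adjusted p = 0.320) and within B31 -1.47 (edgeR adjusted p = 0.0172). Of the 8 fits that left out 1 library, only 2 passed. They were those without non-stretched replicate 7 or 8, at -1.43 (edgeR adjusted p = 0.0279) and -1.40 (edgeR adjusted p = 0.0380). Over all 8 fits the change was between -1.495 and -0.96, with edgeR adjusted p of up to 0.142. These levels rest on 64 to 147 counts in non-stretched and 19 to 59 counts in stretched libraries. Of the 10 markers of differentiated muscle, 8 could be tested and 0 passed, with a median log2 fold change of -0.19, and their sum was 73.7 to 87.7 CPM in non-stretched and 69.8 to 93.5 CPM in stretched libraries.

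After 3 h in myoblasts, 3 of 8 members passed beside 31.9% of all 14813 genes, and 1 was called beside 1.71%. Mef2a was at 127, 130, 138 and 134 CPM without stretching and at 158, 156, 153 and 157 CPM with it. The groups were separate, as for 17.1% of all genes in this direction, and Mef2a rose by 0.23 on the log2 scale (SE 0.0299, edgeR adjusted p = 1.01e-04), with 0.28 and 0.18 within the 2 experiments. Mef2d, the most abundant MEF2 gene per kb of exon union, was at 116, 118, 114 and 119 CPM without and at 132, 131, 134 and 124 CPM with stretching. It rose by 0.15 (SE 0.0272, edgeR adjusted p = 0.00123), again without overlap, which is 10.7% more than in non-stretched cells.

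Myog was the member called at 3 h. It was at 1.95, 1.27, 2.96 and 3.22 CPM in non-stretched myoblasts and at 1.41, 1.31, 1.24 and 1.38 CPM in stretched ones, so the groups overlap in replicate 8 of the non-stretched cells. It fell by 0.82 on the log2 scale (SE 0.234, edgeR adjusted p = 0.0167). The experiments differ: within B31 the change was -1.26 (edgeR adjusted p = 3.87e-04), and within B27 -0.23 (edgeR adjusted p = 0.525). Without non-stretched replicate 9 the change was -0.69 (edgeR adjusted p = 0.0507) and without replicate 10 it was -0.62 (edgeR adjusted p = 0.0656), so the test did not pass without either of these libraries of B31. The markers of differentiated muscle summed to 75.0 to 103 CPM without and 76.8 to 86.2 CPM with stretching, and of the 8 tested only Tnnt2 passed, 0.10 higher, while their median log2 fold change was -0.28 beside -0.01 over all genes; their part in the Myog result was not tested. Six4 at 3 h had a log2 difference of -0.12 (edgeR adjusted p = 0.0724).

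After 6 h in myoblasts, 2 of 8 members passed beside 27.2% of all 14938 genes, and 0 were called beside 2.17%. Myf5 was at 51.5, 52.4, 44.6 and 45.1 CPM in non-stretched and at 65.6, 60.5, 66.4 and 59.5 CPM in stretched libraries. All stretched libraries were above the non-stretched ones, as for 12.4% of all genes, and Myf5 rose by 0.40 on the log2 scale (SE 0.0622, edgeR adjusted p = 0.00108), or 31.8%. Within B27 the difference was 0.29 (edgeR adjusted p = 0.0508) and within B31 0.51 (edgeR adjusted p = 0.0113).

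Myog was at 0.980, 0.899, 0.748 and 0.652 CPM without and at 0.563, 0.581, 0.512 and 0.567 CPM with 6 h of stretching. The groups did not overlap, as for 16.3% of all genes in this direction, and Myog fell by 0.54 (SE 0.171, edgeR adjusted p = 0.0356), from 39 to 63 counts to 33 to 36 counts per library. This change failed the threshold in 6 of the 8 fits that left out 1 library, namely non-stretched replicates 7 and 8 and each of the 4 stretched ones, with adjusted p from 0.0517 to 0.112. It passed in 3 of the 7 alternatives that used all 8 libraries, and failed with DESeq2 (adjusted p = 0.0739), with no filter (edgeR adjusted p = 0.0557) and in one model of all 24 libraries (edgeR adjusted p = 0.223). Within B27 it was -0.70 (edgeR adjusted p = 0.124) and within B31 -0.35 (edgeR adjusted p = 0.426). In the same libraries 5 of the 8 markers of proliferating cells fell, and their sum was 2332 to 2457 CPM without and 2043 to 2280 CPM with stretching; their part in the Myf5 and Myog results was not tested.

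**Figure D3:**
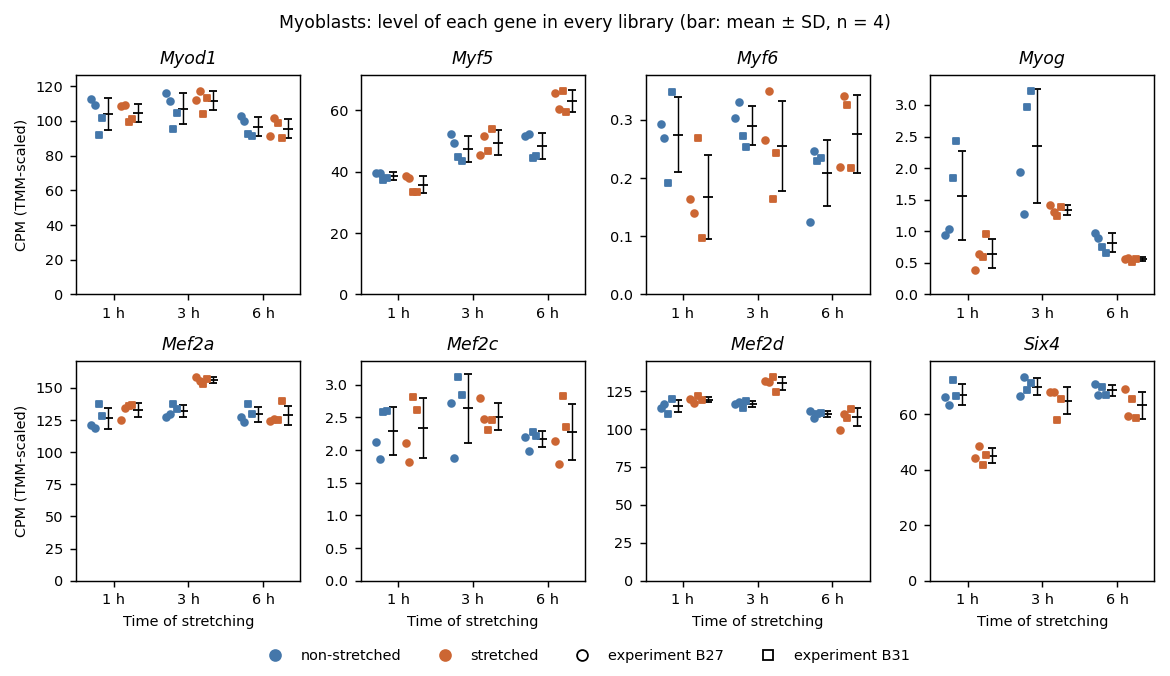
Level of each gene in CPM in every myoblast library by time, for non-stretched (blue) and stretched (orange) cells, with circles for experiment B27, squares for B31 and bars for the mean ± SD of 4 libraries; each axis starts at 0. Six4 is separate at 1 h, Mef2a and Mef2d at 3 h, and Myf5 and Myog at 6 h. Myog shows the widest spread, with the B31 squares highest in non-stretched cells at 1 h and 3 h.

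In differentiated cells stretched for 1 h, 1 of 8 members passed and was called, beside 0.663% of all 15538 genes that passed and 0.27% that were called. Six4 was at 67.1, 70.3, 72.7 and 65.9 CPM in non-stretched replicates 7 to 10 and at 36.0, 41.3, 37.9 and 51.9 CPM in stretched replicates 4, 7, 8 and 9. The groups were far apart, where 3.91% of all genes had separate groups in this direction, and Six4 fell by 0.72 on the log2 scale (SE 0.101, edgeR adjusted p = 0.0162), or by 39.4%. Replicate 4, from experiment B17, had the lowest Six4 level and the highest sum of the 8 proliferation markers, 819 CPM beside 389 to 559 CPM in the other libraries at 1 h; without it the log2 fold change of Six4 was -0.66 (edgeR adjusted p = 0.0135). Leaving out stretched replicate 7 or 8, or any one of the 4 non-stretched libraries, kept the fold change between -0.75 and -0.68 but moved its adjusted p to between 0.0521 and 0.0798. Within B25 the change was -0.80 (edgeR adjusted p = 7.60e-04) and within B28, where stretched cells have 1 library and no test is given, it was -0.41.

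After 3 h in differentiated cells, 0 of 8 members passed, beside 22.2% of all 15513 genes that passed and 1.63% that were called, with edgeR. At an unadjusted p under 0.05 there were 0 members by edgeR. Myog was at 948, 900, 888 and 895 CPM without and at 887, 897, 819 and 817 CPM with stretching, a log2 difference of -0.08 (95% interval -0.18 to 0.01, edgeR adjusted p = 0.173). With the experiment as a covariate the differences of Myog and Mef2a passed (-0.09, adjusted p = 0.0474, and 0.08, adjusted p = 0.0344, edgeR). Six4, which was lower at 1 h, had a log2 difference of -0.06 with a 95% interval of -0.16 to 0.05.

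After 6 h in differentiated cells, 2 of 8 members passed beside 22.3% of all 15433 genes, and 0 were called beside 2.04%. Myf5 was at 21.2, 22.5, 20.6 and 23.7 CPM without and at 31.2, 29.2, 34.3 and 30.9 CPM with stretching. The groups were separate, as for 14.3% of all genes in this direction, and Myf5 rose by 0.51 on the log2 scale (SE 0.0587, edgeR adjusted p = 5.61e-04), or 42.4%. Within B25 the difference was 0.47 (edgeR adjusted p = 1.06e-04) and within B28 0.55 (edgeR adjusted p = 0.0963). The sum of the 8 proliferation markers in these libraries was 301 to 405 CPM without and 326 to 360 CPM with stretching, and 0 of them passed. The satellite or reserve cell markers summed to 176 to 182 CPM without and 170 to 172 CPM with stretching, so that their sums did not overlap, and of the 4 tested Spry1 passed, at a log2 fold change of -0.29. Of the 10 markers of differentiated muscle, Mymx passed, in the lower direction, and their median log2 fold change was -0.12. The part of these markers in the Myf5 result was not tested.

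At 6 h Mef2d was at 424, 429, 417 and 414 CPM without and at 381, 397, 377 and 388 CPM with stretching. All stretched libraries were lower, as for 12.2% of all genes, and Mef2d fell by 0.13 (SE 0.0316, edgeR adjusted p = 0.0160), which did not pass without non-stretched replicate 8 (-0.12, edgeR adjusted p = 0.0585). Six4 was at 76.6, 71.9, 71.2 and 78.3 CPM without and at 89.9, 75.6, 92.9 and 80.6 CPM with stretching, on the higher side rather than the lower. Its ranges overlap, and the log2 difference of 0.18 (SE 0.0626) had an edgeR adjusted p = 0.0587. Without stretched replicate 8 it passed, at 0.23 (edgeR adjusted p = 0.0185), and with DESeq2 the adjusted p was 0.0296. Myog in these libraries had a log2 difference of -0.14 (95% interval -0.28 to -0.01, edgeR adjusted p = 0.122), and passed only without non-stretched replicate 10, at -0.20 (edgeR adjusted p = 0.0336).

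**Figure D4:**
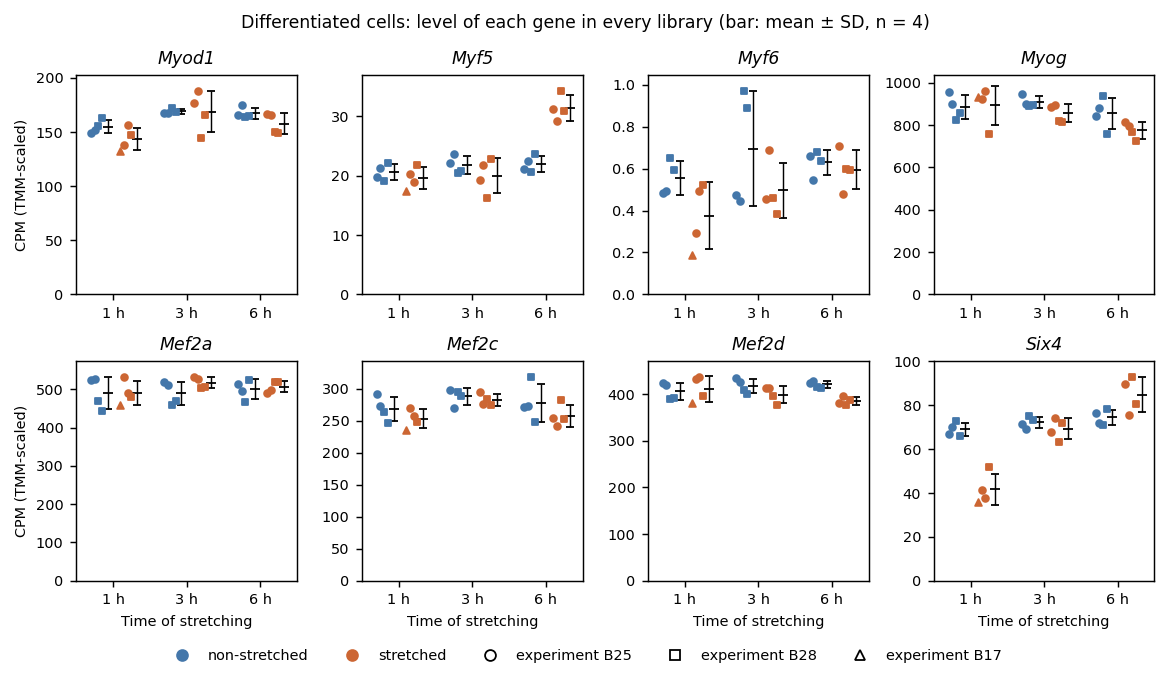
Level of each gene in CPM in every differentiated library by time, for non-stretched (blue) and stretched (orange) cells, with circles for experiment B25, squares for B28, a triangle for the B17 library and bars for the mean ± SD of 4 libraries; each axis starts at 0. Stretched Six4 lies between 36.0 and 51.9 CPM at 1 h and overlaps the non-stretched libraries at 3 h and 6 h, while Myf5 and Mef2d are separate at 6 h.

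The members that did not pass had intervals of different widths. Myod1 had log2 differences between -0.11 and 0.05 in the 6 comparisons, and all of its 95% intervals lay between -0.23 and 0.16. Mef2c in differentiated cells had differences of -0.09, -0.03 and -0.11 with intervals between -0.27 and 0.06. Mef2c in myoblasts, at a low level, was less precisely measured, with intervals from -0.38 to 0.38. Myf6 was the least precise, at 6 to 23 counts per myoblast library and 10 to 62 per differentiated library, and its intervals reached from -1.41 to 1.05.

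The third question was whether the stretch effect of a gene differed between the times, tested as an interaction in one model of the 24 libraries of a stage. In myoblasts, the effect on Six4 was 0.45 higher on the log2 scale at 3 h than at 1 h (SE 0.0808, edgeR adjusted p = 4.78e-04) and 0.48 higher at 6 h than at 1 h (SE 0.0807, edgeR adjusted p = 1.48e-04). It was the 1 member of 8 that passed for 3 h against 1 h, beside 10.9% of all 15684 genes. For 6 h against 1 h, 2 members passed beside 21.1% of all genes, Six4 and Myf5, whose effect was 0.51 higher at 6 h (SE 0.0961, edgeR adjusted p = 4.61e-04). For 6 h against 3 h, 3 members passed beside 26.5%: the effect on Myf5 was 0.35 higher (edgeR adjusted p = 0.00710), that on Mef2a changed by -0.22 (edgeR adjusted p = 0.00987) and that on Mef2d by -0.15 (edgeR adjusted p = 0.0125). The effects on Myog, -1.25, -0.82 and -0.54 at 1 h, 3 h and 6 h, differed between times by 0.29 to 0.70, with adjusted p no lower than 0.291. With the experiment as a covariate, Mef2a also passed for 3 h against 1 h (0.15, edgeR adjusted p = 0.0412).

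In differentiated cells, Six4 and Myf5 passed. The effect on Six4 was 0.66 higher at 3 h than at 1 h (SE 0.117, edgeR adjusted p = 0.00127) and 0.90 higher at 6 h than at 1 h (SE 0.117, edgeR adjusted p = 4.76e-05). Six4 was the 1 member that passed for 3 h against 1 h, beside 5.15% of all 16266 genes. The effect on Myf5 was 0.58 higher at 6 h than at 1 h (SE 0.120, edgeR adjusted p = 0.00307), so that 2 members passed beside 11.9%, and 0.63 higher at 6 h than at 3 h (SE 0.120, edgeR adjusted p = 0.00140), as the 1 member that passed beside 12%. With the experiment as a covariate, Mef2d also passed for 6 h against 1 h (-0.17, edgeR adjusted p = 0.00290, beside -0.15 and 0.119 without it).

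The difference of the stretch effect between the stages was tested last, with an interaction of stage and stretching at each time. At 1 h, 0 members passed beside 0% of all 16299 genes with edgeR, and Myog was the 1 member with an unadjusted p under 0.05: its effect was 1.25 higher in differentiated cells (SE 0.326, edgeR adjusted p = 0.661). The difference for Six4 at 1 h was -0.15 (SE 0.122, edgeR adjusted p = 1.00), smaller than its change in either stage. At 3 h, 1 member passed beside 1.79% of all genes: the effect on Mef2d in differentiated cells differed from that in myoblasts by -0.22 (SE 0.0497, edgeR adjusted p = 0.0299), where stretched cells had -0.06 beside 0.15 in myoblasts. This difference did not pass without non-stretched myoblast replicate 9, without stretched myoblast replicate 7, 8 or 9, without non-stretched differentiated replicate 7 or 8, or without stretched differentiated replicate 9, where the adjusted p was between 0.0502 and 0.0761. Myog at 3 h differed by 0.72 (SE 0.219, edgeR adjusted p = 0.112), which passed with no filter on low counts (0.71, edgeR adjusted p = 0.0446) and without non-stretched myoblast replicate 8 at 0.94 (edgeR adjusted p = 0.00432). At 6 h, 0 members passed beside 5.18% of all genes with edgeR, and the differences of Myf5 (0.10), Myog (0.39), Mef2d (-0.12) and Six4 (0.27) had edgeR adjusted p from 0.0749 to 0.583. Of these, Six4 passed with no filter (0.31, edgeR adjusted p = 0.0267), with DESeq2 (0.29, adjusted p = 0.0140), without stretched myoblast replicate 7 (0.33, edgeR adjusted p = 0.0349) and without stretched differentiated replicate 8 (0.33, edgeR adjusted p = 0.0330).

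The genes that act with the myogenic factors were read by the same rules. Among the bHLH partners and inhibitors, 0 were called higher and 1 lower in myoblasts at 1 h (1.25% of all genes called). At 3 h 1 was called higher and 1 lower (1.71%). In differentiated cells at 6 h 0 were called higher and 1 lower (2.04%), and none was called in the other comparisons. Of the 17 tested bHLH partners and inhibitors, 0 passed higher and 2 lower in myoblasts at 1 h, where 5.92% of all genes passed in either direction. In myoblasts 6 passed higher and 3 lower at 3 h (31.9% of all genes), and 5 higher and 4 lower at 6 h (27.2%). In differentiated cells 0 passed at 1 h (0.663%), and 4 passed higher and 0 lower at 3 h (22.2%), with a median log2 fold change of 0.13. At 6 h 1 passed higher and 7 lower (22.3%), with a median of -0.09 beside -0.000115 over all genes. Heyl, a Notch-responsive bHLH repressor, fell by 1.39 (edgeR adjusted p = 0.0343) at 1 h and fell by 0.83 (edgeR adjusted p = 0.00245) at 3 h in myoblasts, from means of 1.33 and 1.94 CPM. Bhlhe40, a stress- and clock-linked bHLH repressor, rose by 0.64 (edgeR adjusted p = 7.92e-07) in myoblasts at 3 h, from a mean of 34.9 to 54.9 CPM. In differentiated cells at 6 h, Id3, which sequesters E proteins, fell by 0.60 (edgeR adjusted p = 0.00607).

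Six5, a homeobox gene of the same family as Six4, was called at 3 h in both stages. Of all genes, 1.71% were called there in myoblasts and 1.63% in differentiated cells. Six5 fell by 0.59 in myoblasts (edgeR adjusted p = 0.00159) and fell by 0.67 in differentiated cells (edgeR adjusted p = 0.00148), from 3.40 ± 0.415 and 4.02 ± 0.295 CPM (SD, n = 4) in non-stretched cells.

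Of the MEF2 regulators and coactivators, 18 or 19 of 20 could be tested. In myoblasts, 3 passed higher and 1 lower at 1 h beside 5.92% of all genes, 2 higher and 3 lower at 3 h beside 31.9%, and 2 higher and 4 lower at 6 h beside 27.2%. In differentiated cells, 0 passed at 1 h beside 0.663%, 2 passed higher and 3 lower at 3 h beside 22.2%, and 1 higher and 4 lower at 6 h beside 22.3%. Mamstr, a MEF2-activating cofactor, was the 1 call, and fell by 0.59 (edgeR adjusted p = 0.0118) at 3 h in differentiated cells, where 1.63% of all genes were called. Of the 25 early muscle targets tested in myoblasts at 3 h, the time of the Myog call, 2 were called lower and 0 higher, beside 1.71% of all genes called. They were Myl1, an essential myosin light chain (-0.74, edgeR adjusted p = 0.0105), and Mybph, a myosin-binding protein (-0.82, edgeR adjusted p = 0.0411). In the same comparison 4 of the targets passed higher and 2 lower, beside 31.9% of all genes that passed. Xirp1, an actin-binding protein of cell junctions, was called higher in myoblasts at 6 h, at 0.74 (edgeR adjusted p = 0.00197). It was the 1 call among the 25 targets tested there, beside 2.17% of all genes called. In differentiated cells 0 of the 28 targets were called at 1 h, 3 h or 6 h, beside 0.27%, 1.63% and 2.04% of all genes. At 6 h 0 of them passed higher and 5 lower beside 22.3% of all genes, with a median of -0.08.

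The genes whose log2 CPM was most like that of a member over the 24 libraries of a stage were found with Pearson's r, as a description: the libraries share stretch groups, times and experiments, and they number 24 in each case. For Six4 these were the zinc finger genes Zfp59 (r = 0.970), Zfp235 (0.964) and Zbtb26 (0.957) in differentiated cells, and 2610044O15Rik8 (0.949), 4632415L05Rik (0.946) and Zfp866 (0.941) in myoblasts. For Myf5 they were Tmem170b (0.932), Cbx8 (0.929) and Cmtm4 (0.929) in myoblasts and Hist2h2bb (0.941), Cmtm3 (0.932) and Stk4 (0.923) in differentiated cells. Myog in myoblasts was most like the secreted-protein genes C1qtnf1 (0.938), Spon2 (0.924) and C1qtnf3 (0.924), each with a mean under 5 CPM, and in differentiated cells like Dlg2 (0.898), Dpep1 (0.885) and Gatm (0.878).

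For the MEF2 genes, Mef2a was most like Asap1 (r = 0.931), Aff4 (0.906) and Rbbp6 (0.902) in myoblasts and Secisbp2l (0.859), Xirp2 (0.854) and Filip1 (0.842) in differentiated cells. Mef2d was most like Tle3 (0.922), Arf2 (0.919) and Nrap (0.918) in myoblasts and Plcg2 (0.933), Inpp5j (0.905) and Tcp11l2 (0.900) in differentiated cells. Mef2c had lower values, led by Sema3c (0.807), Synpo2l (0.762) and Ugp2 (0.751) in myoblasts and by Anxa8 (0.857), Phf10 (0.801) and Dmd (0.784) in differentiated cells. Myod1 was led by Aplp1 (0.844), Crip1 (0.836) and Creb3l1 (0.834) in myoblasts and Scaf1 (0.876), Phlda3 (0.814) and Ntn5 (0.795) in differentiated cells, and Myf6 by Tigd5 (0.729), Zfp345 (0.700) and Ddit4 (0.653) and by Mfsd12 (0.886), Ak3 (0.828) and Plekhh1 (0.821), respectively.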

How the data were processed

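RNA of 48 libraries was sequenced as paired reads. Per the submitters' processing notes, the authors used STAR, Salmon and DESeq2 with mm10, and they deposited an estimated count per gene symbol and library, in whole numbers and without normalization, in a table for each stage. All 48 columns were used and 0 left out. Samples were grouped from their labels. A stretched 1 h myoblast library has a title whose experiment code differs from the B31 written in its column, and it was used as B31.

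From the deposited counts, genes with few reads were dropped (filterByExpr), TMM gave the scaling factors, and groups were compared with edgeR 4.0.16 (quasi-likelihood test, two-sided, Benjamini-Hochberg adjustment over all genes tested) in R 4.3.3. CPM values use TMM factors over all 48 libraries, and log2 CPM a prior count of 1. The tables of the stages were made separately by the authors, and were joined by symbol and scaled here. Standard errors are the log2 fold change divided by the square root of the test statistic. Libraries of a group differed by at least 2.74 times the sampling variance (chi-square per degree of freedom), so none was counted as a duplicate. The script was tested on simulated data. Lengths, positions and shared 31-base stretches come from GENCODE vM21, and promoters from RefSeq GRCm38.p6.

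The members and lists were chosen with earlier results of these data known. All 8 members are named, with the 3 genes most like each of them and, for each list and comparison, at most 4 called genes. Alternatives were DESeq2 1.42.0, RLE normalization, no filter, a minimum of 10 counts per library, one model over the 24 libraries of a stage, experiment as a covariate or taken alone, the replicate number as a block, glmTreat, no fold limit and leaving out each library. The longest transcript as the length was added after the values were seen. Splicing was not analysed here, and counts over the list of Six4 partners are not reported here.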

Additional observations from a re-analysis of the deposited data

Results flagged for a closer look

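In 96 groups of 4 libraries, 3 held a library that stood apart from the other 3 by Dixon's test, where chance flags about 1 in 20. Myod1 in non-stretched differentiated cells at 6 h was 175 CPM in replicate 8 and 164 to 166 CPM in the others. Myf6 in non-stretched myoblasts at 6 h was 0.124 CPM in replicate 7 and 0.229 to 0.247 CPM in the others. Mef2a in stretched myoblasts at 6 h was 140 CPM in replicate 10 and 124 to 126 CPM in the others.

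The stretch effect differed between times by an interaction test. In myoblasts, Six4 differed by 0.45 (3 h minus 1 h) and 0.48 (6 h minus 1 h), Myf5 by 0.51 (6 h minus 1 h) and 0.35 (6 h minus 3 h), and Mef2a and Mef2d by -0.22 and -0.15 (6 h minus 3 h). In differentiated cells, Six4 differed by 0.66 (3 h minus 1 h) and 0.90 (6 h minus 1 h), and Myf5 by 0.58 (6 h minus 1 h) and 0.63 (6 h minus 3 h). The effect on Mef2d at 3 h differed between the stages by -0.22 (differentiated minus myoblasts). The edgeR adjusted p of these differences ranged from 4.76e-05 to 0.0299.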

How the results depend on the processing

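Of the values of single members, the 1 that changed direction where either value passed was Myod1 in differentiated cells at 3 h, which was near 0 over all libraries and 0.13 (edgeR adjusted p = 0.0431) within experiment B25. For members called in myoblasts at 1 h (0), DESeq2, a minimum of 10 counts, all 24 libraries, the experiment as a covariate and no fold limit each gave 1, and no filter and experiment B31 alone gave 2. In myoblasts at 3 h (1), glmTreat and experiment B27 alone gave 0, and no fold limit 3. No fold limit gave 2 in myoblasts and in differentiated cells at 6 h (0 in each). In differentiated cells at 1 h (1), glmTreat and experiment B28 alone gave 0, and at 3 h (0) B28 alone gave 1, Myf6 at -1.13 (edgeR adjusted p = 0.0168). For members whose stretch effect differs between the stages (1), no filter gave 3 and DESeq2 2. Leaving out 1 library gave 0 to 2 calls in myoblasts at 1 h, 0 to 1 at 3 h and 6 h, 0 to 1 in differentiated cells at 1 h and 0 at the later times. It gave 4 to 5 members for the differences between times in myoblasts and 2 to 3 in differentiated cells, 1 to 3 for non-stretched myoblasts over time, 7 for the stages and 0 to 2 for the difference between the stages. The cause of these moves was not tested. Myog, Myf6 and Mef2c in myoblasts are limited by counts under 200 per library. By length, the share of Mef2a in the summed MEF2 level per kb moved from 31.5% to 52.1% in myoblasts.

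Pairing of the libraries by replicate number was weak and uneven. Same-numbered stretched and non-stretched libraries had deviations that correlated between -0.04 and 0.15, with 2 of 4 pairs at most over 0.1 in a comparison. Of 23 such pairs, 6 were over 0.1, and in 10 a library correlated best with its own number. At most 2 of 4 did so in a comparison, and replicate 7 did so in every comparison. The main fits hold no term for the replicate number. With the replicate number as a block, 1 member was called in myoblasts at 1 h (Myog, -1.25, edgeR adjusted p = 0.00524), 4 differed between times in non-stretched myoblasts and 2 had a stretch effect that differed between the stages, with Myog at 1 h added (1.24, edgeR adjusted p = 0.00967). Mef2d in differentiated cells also passed for 6 h against 1 h (-0.17, edgeR adjusted p = 0.00580), Six4 in myoblasts passed at 3 h (-0.12, edgeR adjusted p = 0.0404), and Myog in myoblasts at 6 h no longer passed (-0.53, edgeR adjusted p = 0.0529).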

Other observations

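Some genes of the lists that changed by less than the limit for a call were singled out after their values were seen. Eya1, a coactivator of Six4, rose by 0.32 and 0.18 in myoblasts at 3 h and 6 h (edgeR adjusted p = 1.94e-05 and 0.0412) and by 0.36 in differentiated cells at 6 h (edgeR adjusted p = 0.00368). Other genes of its list passed in the lower direction in myoblasts at both of these times. Of all genes, 31.9% passed in myoblasts at 3 h, 27.2% in myoblasts at 6 h and 22.3% in differentiated cells at 6 h.

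The Id genes, which encode proteins that keep E proteins from the myogenic factors, also moved. In myoblasts at 3 h, Id1, Id2 and Id3 rose by 0.43, 0.45 and 0.33 (edgeR adjusted p = 3.80e-05, 4.53e-05 and 8.56e-04). In differentiated cells at 6 h, Id1 and Id2 fell by 0.26 and 0.29 (log2 fold changes of -0.26 and -0.29, edgeR adjusted p = 0.00439 and 0.00774). Beside these, 31.9% of all genes passed in myoblasts at 3 h and 22.3% in differentiated cells at 6 h. Mymx, which encodes the fusion protein myomixer, fell by 0.39 in differentiated cells at 6 h (edgeR adjusted p = 0.00162), from 82.9 ± 6.48 CPM to a mean of 63.2 CPM (n = 4 each).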
